A study of Rattus norvegicus with 9 samples.

Results

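The mechanosensing machinery of muscle was followed in 10 genes through prolonged fasting in rat tibialis anterior (TIB). They were chosen by name, as Ankrd1, Ankrd2, Ankrd23, Csrp3, Ky, Xirp1, Xirp2, Igfn1, Fhl1 and Fhl3, and each was read from the probe set that the platform's annotation gives to that symbol alone. Of the 10 genes, 8 have such a probe set, 1 each, among 14506 genes measured in this way, and Xirp1 and Igfn1 were not analysed here. Expression was profiled in male Sprague Dawley rats, 1 array per rat, in 3 groups of 3. The Fed rats were fed until sampling. The other groups were deprived of food until phase 2 of fasting (P2), when body protein is spared and lipids are the main fuel, or until phase 3 (P3), when body protein is mobilized. Diet is the only treatment that the labels give, and the rats' age and time without food are not given in the labels. The study's methods assign the phase of each fasted rat from its daily loss of body mass. Rats are named below by group and number, from Fed 1 to P3 3.

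A sarcomere reports its own stretch through proteins that sit where filaments are anchored. The muscle ankyrin repeat proteins Ankrd1, Ankrd2 and Ankrd23 bind the N2A region of titin, the giant elastic protein of the sarcomere, and can also enter the nucleus. Csrp3, Fhl1 and Fhl3 are built of LIM domains, zinc-binding modules that dock on Z-disc proteins, actin and transcription factors. Xirp1 and Xirp2 carry Xin repeats that bind and bundle actin filaments. Ky is a Z-disc protein that binds filamin C, its loss causes curvature of the spine in the kyphoscoliosis mouse, and Igfn1 was found as a partner of Ky in mouse muscle.

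The promoter windows are shown for the 4 genes whose transcripts passed the test below. Of these, 3 (Ky, Xirp2 and Fhl1) were lower in P3 than in Fed, and 1 (Fhl3) was higher in P2 than in Fed. Each window runs from 250 bases before to 50 bases after a RefSeq gene start in the assembly GRCr8, 5′ to 3′ on the plus strand of the chromosome. Capitals mark matches to any of 6 motifs searched on both strands, namely the MEF2 box, the CArG box bound by SRF, the M-CAT element CATTCC bound by TEAD factors, the MyoD E-box CAGCTG, the FOXO motif TGTTTAC and the glucocorticoid receptor half-site AGAACA. The windows lie at chr8:111965612-111965911 for Ky, chr3:72533936-72534235 for Xirp2, chrX:139638246-139638545 for the first of 2 Fhl1 starts and chr5:142238540-142238839 for Fhl3.
Ky: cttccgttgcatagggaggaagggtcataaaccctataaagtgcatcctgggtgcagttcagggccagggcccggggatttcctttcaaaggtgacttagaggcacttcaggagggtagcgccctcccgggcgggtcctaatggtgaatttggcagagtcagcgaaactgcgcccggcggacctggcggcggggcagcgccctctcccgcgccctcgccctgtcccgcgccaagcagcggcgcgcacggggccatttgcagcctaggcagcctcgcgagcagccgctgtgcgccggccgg
Xirp2: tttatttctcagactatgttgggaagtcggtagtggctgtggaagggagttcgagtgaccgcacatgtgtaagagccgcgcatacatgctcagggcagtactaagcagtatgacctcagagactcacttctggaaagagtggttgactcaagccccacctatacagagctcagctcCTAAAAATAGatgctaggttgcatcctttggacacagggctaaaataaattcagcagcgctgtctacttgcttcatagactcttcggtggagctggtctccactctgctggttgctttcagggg
Fhl1: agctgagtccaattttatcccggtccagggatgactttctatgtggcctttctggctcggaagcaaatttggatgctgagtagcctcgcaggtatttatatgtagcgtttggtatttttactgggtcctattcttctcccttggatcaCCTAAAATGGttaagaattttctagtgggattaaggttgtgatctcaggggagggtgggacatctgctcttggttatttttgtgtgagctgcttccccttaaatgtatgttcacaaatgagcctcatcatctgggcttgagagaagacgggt
Fhl3: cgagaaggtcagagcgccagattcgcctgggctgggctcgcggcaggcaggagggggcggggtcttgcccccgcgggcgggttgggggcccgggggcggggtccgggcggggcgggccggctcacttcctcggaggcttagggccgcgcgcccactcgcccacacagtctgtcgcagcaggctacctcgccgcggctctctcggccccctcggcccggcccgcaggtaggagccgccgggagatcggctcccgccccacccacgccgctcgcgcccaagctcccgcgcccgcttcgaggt

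The Xirp2 window holds a MEF2 box at position -74 from the start, a motif found in 3.29% of 33469 such windows. The Fhl1 window holds a CArG box at position -102, found in 1.64% of all windows. The Ky and Fhl3 windows hold none of the 6 motifs, and their GC content was 66.7% and 78%, against a median of 51.7% over all windows. RefSeq windows were matched for 8 of the 10 genes, without Ankrd1 and Csrp3. Of the others, Ankrd23 holds an M-CAT element at position -102 (14.2% of windows), Ankrd2 and the second Fhl1 window hold none, and Xirp1 and Igfn1 each hold an E-box (15.1% of windows). A FOXO motif was found in 3.78% and a glucocorticoid half-site in 20.7% of all windows. Among the 8 genes with a window the only half-site was in Xirp1, which also has a MEF2 box. A match describes these letters and is not a shown binding site.

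The deposited values are log2 intensities normalized between arrays by the authors, so levels can be set against each other between rats but not between genes. Array medians lay between 5.801 and 5.899. The mean of 6 skeletal muscle markers was 13.38 to 13.41 in Fed rats, 13.33 to 13.39 in P2 rats and 13.17 to 13.24 in P3 rats. The values carry no detection call. Where a group lies near or below the array medians, its signal was not shown to be above background, so a change against it may be understated. Changes were tested with limma over all 29215 probe sets, and a gene counts as changed when its p adjusted by the Benjamini-Hochberg method is under 0.05. The ± sign marks the standard error of a log2 fold change and the SD of a level, with 3 rats in every group.

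In P2, 2 of the 8 genes differed from Fed, where 9.28% of all probe sets did. Fhl3 was higher, as were 5.13% of all probe sets, and Ky was lower, as were 4.15%. In P3, Ky, Xirp2 and Fhl1 were lower than in Fed and the other 5 genes did not pass. Of all probe sets 29.2% differed between P3 and Fed, with 15.8% higher and 13.4% lower. P3 and P2 differed in 3 genes, Ky, Xirp2 and Fhl3, all lower in P3, against 16.0% of all probe sets, 8.50% higher and 7.52% lower. The rats of the groups did not overlap for 4 of 8 genes in P2 versus Fed (24.2% of all probe sets), 3 of 8 in P3 versus Fed (42.4%) and 4 of 8 in P3 versus P2 (27.4%). In P3 versus Fed the count of calls in either direction and the count without overlap stand near those shares. No gene was higher in P3 than in Fed or P2 (0 of 8 each), which is below the shares of 15.8% and 8.50%. The other counts stand above the shares. The shares include probe sets without a symbol. In a fit of only the 15310 probe sets with 1 symbol, 2354 were called in P2 versus Fed, 5758 in P3 versus Fed and 3729 in P3 versus P2. These are larger shares than those over all probe sets, and that fit called 3 of the 8 genes in each comparison. With 8 genes the counts are a description, and what follows is about each gene. The median log2 fold change of the 8 genes was -0.36 in P2 versus Fed, -0.55 in P3 versus Fed and -0.61 in P3 versus P2, beside medians of 0.011, 0.00035 and -0.0094 over all probe sets.

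**Figure D1:**
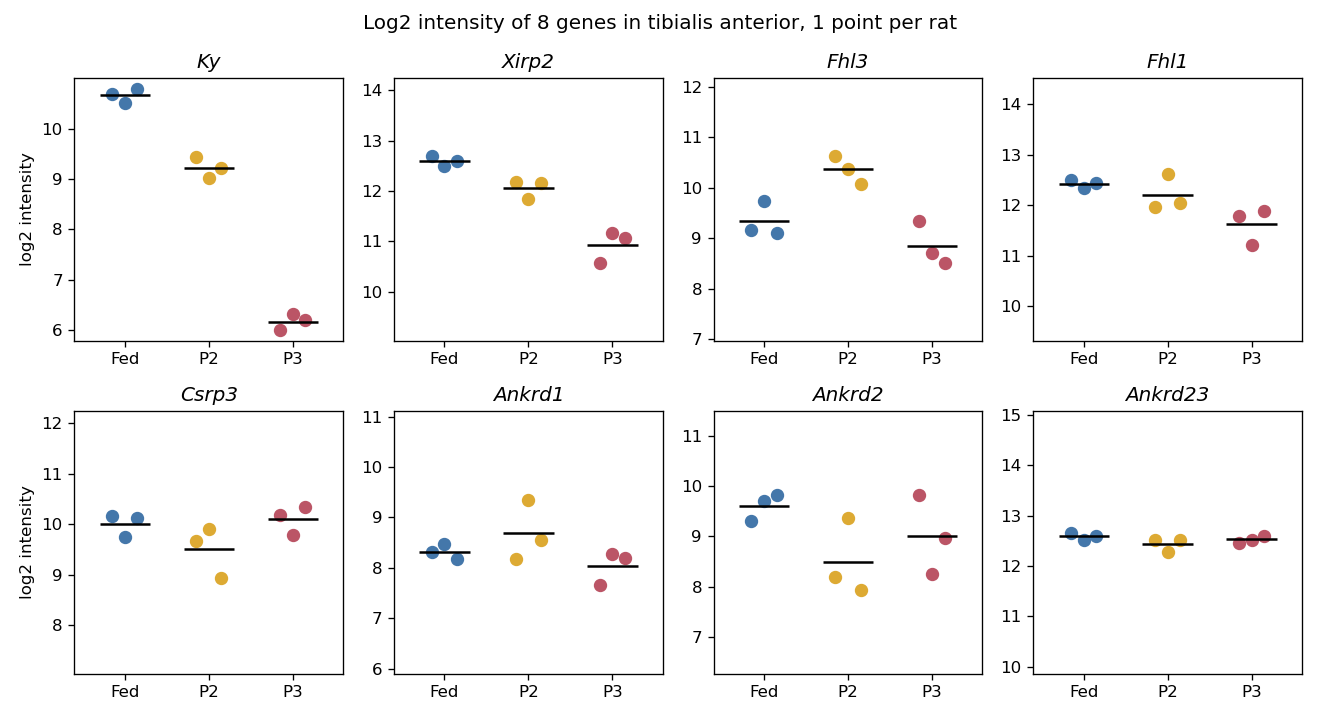
Log2 intensity (y axis) of the 8 genes in the Fed, P2 and P3 groups (x axis), with 1 point per rat and a line at the mean of 3 rats. Each panel spans the same range of log2 units. The P2 and P3 rats step down in Ky and Xirp2, the P2 rats of Fhl3 sit above both other groups, and the groups of Ankrd1, Ankrd2, Ankrd23 and Csrp3 overlap in P3 versus Fed.

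Ky had the largest change of the set. Its log2 intensity was 10.69, 10.51 and 10.79 in Fed rats, 9.44, 9.03 and 9.22 in P2 rats and 6.0, 6.33 and 6.20 in P3 rats. Every P2 rat was below every Fed rat and every P3 rat below every P2 rat, with gaps of 1.07 and 2.70. Against Fed, Ky fell 2.70-fold in P2 (-1.44 ± 0.13 on the log2 scale, adjusted p = 0.000394) and 22.5-fold in P3 (-4.49 ± 0.13, 95% confidence interval -4.78 to -4.20, adjusted p = 1.24e-07). The P3 rats averaged 8.31-fold below the P2 rats (-3.05 ± 0.13, adjusted p = 3.48e-06). The P3 values lie close to the array medians, so the fold changes of P3 against Fed and P2 may be understated. Its calls held in all 20 alternatives run for each comparison.

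Xirp2, which bundles actin near the Z-disc and at the ends of the fibre, followed the same order. Its log2 intensity was 12.69, 12.50 and 12.59 in Fed rats, 12.17, 11.84 and 12.16 in P2 rats and 10.57, 11.17 and 11.07 in P3 rats, without overlap between any groups. It fell 3.15-fold in P3 versus Fed (-1.66 ± 0.16, adjusted p = 5.74e-05) and 2.17-fold in P3 versus P2 (-1.12 ± 0.16, adjusted p = 0.00136). Its log2 fold change in P2 versus Fed was -0.54 ± 0.16 (95% confidence interval -0.90 to -0.18), and the adjusted p of 0.0732 missed the threshold. It passed in 6 of 20 alternatives, with 0.0220 without P3 1 as the lowest adjusted p. Over the same rats, 5 of 7 markers of fibroblasts were lower in P3 than in Fed. The summed level of the 7 was 13.89 to 14.04 in Fed, 12.67 to 13.58 in P2 and 12.07 to 12.73 in P3. A summed level, here and below, is the log2 of the added intensities, in which the genes of highest intensity weigh most. The other 2 markers did not pass in P3 versus Fed. The defining gene Pdgfra had a log2 fold change of -0.39 ± 0.29 (adjusted p = 0.377), and Dcn went the other way at 0.39. The part of fibroblasts in the decreases of Ky and Xirp2 was not tested. In whole muscle, fewer cells of a type and less RNA per cell cannot be told apart.

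Among the LIM domain genes, Fhl3 peaked in P2. Fhl3 binds actin and, in cultured mouse cells, restrains the myogenic factor MyoD. It had log2 intensities of 9.17, 9.74 and 9.11 in Fed rats, 10.64, 10.38 and 10.08 in P2 rats and 9.34, 8.71 and 8.51 in P3 rats. All P2 rats were above all Fed and P3 rats, and P3 overlapped with Fed. Fhl3 was 2.03-fold higher in P2 than in Fed (1.02 ± 0.25, adjusted p = 0.0345) and fell 2.86-fold in P3 versus P2 (-1.52 ± 0.25, adjusted p = 0.00292). The P3 level of 8.85 ± 0.43 did not pass against the Fed level of 9.34 ± 0.35 (-0.49 ± 0.25, adjusted p = 0.183), though it passed without P3 1 (-0.74, adjusted p = 0.0448). The call in P2 depended on single rats. It was lost without Fed 1, Fed 3, P2 1, P2 2, P2 3 or P3 2, with adjusted p from 0.0522 to 0.120, while the log2 fold change stayed between 0.85 and 1.22 in all alternatives. Markers of fat cells had a like course. Of 6 such genes, 3 (Adipoq, Fabp4 and Cidec) were higher in P2 than in Fed, or 1 without Fed 2, and the same 3 were lower in P3 than in P2, or 1 without P3 1. The summed level of the 6 genes was 9.95 to 10.08 in Fed, 10.70 to 10.83 in P2 and 9.48 to 9.83 in P3 on the log2 scale. Fabp4 weighs most in this sum, with log2 intensities of 10.28, 10.44 and 10.34 in P2 rats. The means of Adipoq (5.39 in Fed and 5.72 in P3) and Cidec (5.27 and 5.18) lie below the array medians. Their signal in these 2 groups was not shown to be above background. The fat cell markers Plin1, Lep and Retn did not pass in any comparison. The part of fat cells in the Fhl3 values was not tested.

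Fhl1, a LIM protein of the sarcomere and nucleus that is mutated in inherited human myopathies, was lower in P3. It had log2 intensities of 12.49, 12.34 and 12.44 in Fed rats, 11.96, 12.62 and 12.04 in P2 rats and 11.78, 11.21 and 11.88 in P3 rats. All P3 rats were below all Fed and P2 rats, whereas P2 2 was above every Fed rat. Fhl1 fell 1.74-fold in P3 versus Fed (-0.80 ± 0.21, adjusted p = 0.0172), a call that was lost without Fed 1 (adjusted p = 0.0560) or Fed 3 (adjusted p = 0.0538). Its log2 fold change was -0.22 ± 0.21 in P2 versus Fed (adjusted p = 0.613) and -0.58 ± 0.21 in P3 versus P2 (adjusted p = 0.103). Of 7 markers of smooth muscle and pericytes, 5 were also lower in P3 than in Fed, or 3 without Fed 1, Fed 3 or P3 2, while the defining gene Myh11 had a log2 fold change of -0.011 ± 0.22. Their summed level was 12.66 to 12.89 in Fed, 12.36 to 12.76 in P2 and 11.86 to 12.33 in P3, and their part in the Fhl1 result was not tested.

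Csrp3, or muscle LIM protein, is a Z-disc protein that is more abundant in slow fibres. Its log2 intensity was 10.17, 9.75 and 10.12 in Fed rats, 9.67, 9.91 and 8.94 in P2 rats and 10.19, 9.78 and 10.34 in P3 rats. The 3 groups overlapped, and P2 3 was the lowest rat. In P3 versus Fed the log2 fold change was 0.089 ± 0.25 (adjusted p = 0.833), and no change was detected. Its 95% confidence interval of -0.47 to 0.65 holds changes of either sign. It was -0.51 ± 0.25 in P2 versus Fed (adjusted p = 0.274) and 0.60 ± 0.25 in P3 versus P2 (adjusted p = 0.163). The difference between P3 and P2 passed only when arrays were given weights estimated from the data (0.92, adjusted p = 0.0300).

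**Figure D2:**
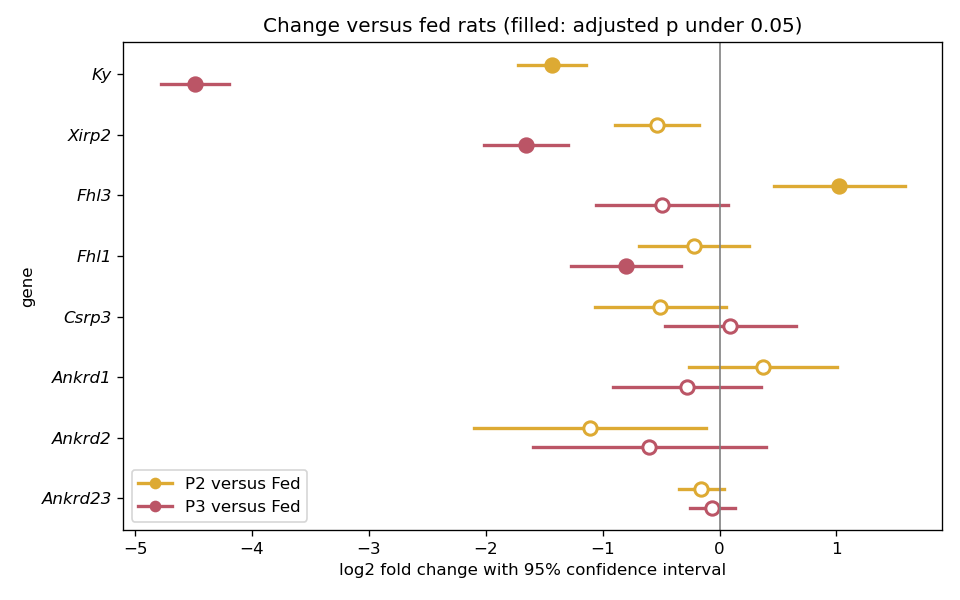
Log2 fold change versus Fed (x axis) of the 8 genes (y axis), P2 in yellow above P3 in red, with 95% confidence intervals from the limma fit over 3 rats per group. Filled points passed an adjusted p of 0.05. Ky lies farthest from 0 at -4.49 in P3, Fhl3 is the only gene to the right with a filled point, at 1.02 in P2, and all 3 ankyrin repeat genes have open points.

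None of the 3 ankyrin repeat genes passed limma's test at an adjusted p under 0.05 in any comparison, and at an unadjusted p under 0.05 there were 2 differences, Ankrd2 in P2 versus Fed and Ankrd1 in P3 versus P2. Ankrd1, also called CARP, is induced by stretch, injury and denervation in rodent muscle. It had log2 intensities of 8.32, 8.47 and 8.17 in Fed rats, 8.17, 9.34 and 8.55 in P2 rats and 7.66, 8.28 and 8.19 in P3 rats. P2 2 stood above all other rats and P3 1 below them, and the groups overlapped. The log2 fold change was 0.37 ± 0.28 in P2 versus Fed (95% confidence interval -0.26 to 1.00, adjusted p = 0.514), -0.28 ± 0.28 in P3 versus Fed (-0.91 to 0.35, adjusted p = 0.524) and -0.65 ± 0.28 in P3 versus P2 (adjusted p = 0.183).

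Ankrd2, the family member of slow fibres, was the most variable gene of the set. Its log2 intensity was 9.31, 9.70 and 9.82 in Fed rats, 8.20, 9.36 and 7.94 in P2 rats and 9.82, 8.25 and 8.96 in P3 rats. Rats of the same fasting phase differed by up to 1.57, and P3 1 was level with the highest Fed rat. The SD within groups exceeded that of 99.5% of all probe sets. The log2 fold change was -1.11 ± 0.44 in P2 versus Fed (95% confidence interval -2.10 to -0.11, adjusted p = 0.175), -0.60 ± 0.44 in P3 versus Fed (-1.60 to 0.39, adjusted p = 0.367) and 0.51 ± 0.44 in P3 versus P2 (adjusted p = 0.563). Decreases of more than 2-fold remain within both intervals against Fed.

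Ankrd23, also called diabetes-related ankyrin repeat protein, was by contrast steady. It had log2 intensities of 12.66, 12.52 and 12.59 in Fed rats, 12.51, 12.28 and 12.51 in P2 rats and 12.46, 12.52 and 12.60 in P3 rats. The P2 rats lay just below the Fed rats, with a gap of 0.0091. The log2 fold change was -0.16 ± 0.085 in P2 versus Fed (adjusted p = 0.338) and -0.062 ± 0.085 in P3 versus Fed, with a 95% confidence interval of -0.26 to 0.13 (adjusted p = 0.650). In P3 versus P2 it was 0.093 ± 0.085 (adjusted p = 0.587).

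Within groups, the spread of Ankrd2 followed the rats' slow fibre genes closely, and that of Fhl1 and Csrp3 more loosely. Xirp2, Ankrd23 and Ky went the other way. Of 10 slow fibre genes, 7 fell in P3 versus Fed (median log2 fold change -1.002), with Casq2 at -3.26 ± 0.20, Tnni1 at -2.30 ± 0.31, Myl2 at -2.24 ± 0.25 and Myl3 also lower. In P2 versus Fed 4 of the 10 fell, or 2 without Fed 2, Fed 3, P2 1, P2 3 or P3 3. The mean log2 intensity of the 10 genes was 10.36, 10.40 and 10.51 in Fed rats, 9.32, 9.92 and 9.15 in P2 rats and 9.42, 8.77 and 9.02 in P3 rats. In each of the 3 groups, the rats stood in the same order for Ankrd2 as for this mean. The order was the same in 1 of 3 groups for Csrp3 and in none for the other 6 genes, and for Ankrd1, Xirp2 and Ky it was the reverse in 1 group. Over the 9 rats, Pearson's r between deviations from the group means was 0.98 for Ankrd2, 0.81 for Fhl1, 0.69 for Csrp3, 0.41 for Fhl3 and 0.25 for Ankrd1. It was below 0 for Xirp2 (-0.88), Ankrd23 (-0.77) and Ky (-0.67). With the mean of 10 fast fibre genes, r was 0.86 for Ankrd23, 0.69 for Ky, 0.59 for Xirp2 and 0.0086 for Fhl3. With the same mean it was below 0 for Ankrd1 (-0.77), Ankrd2 (-0.68), Fhl1 (-0.64) and Csrp3 (-0.30). These values are a description, as each pair comes from the same arrays and 3 rats make a group. Such a spread was not confined to the fibre lists. P2 2 and P3 1, the rats with the highest Ankrd2 in P2 and P3, also led their groups in other markers. Their mean log2 intensity was 10.11 and 8.986 for markers of fibroblasts, and 9.025 and 8.996 for markers of endothelium. For both marker lists, the order of the other P2 rats was not that of Ankrd2. The part of the share of slow fibres, or of other cells, in these values was not tested.

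**Figure D3:**
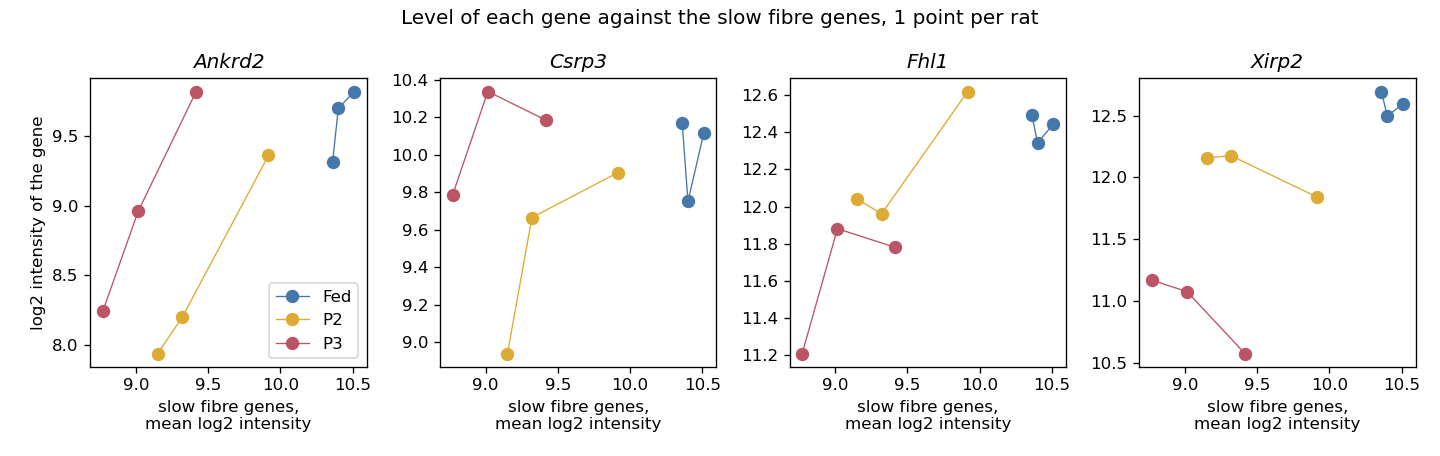
Log2 intensity of Ankrd2, Csrp3, Fhl1 and Xirp2 (y axis) against the mean log2 intensity of 10 slow fibre genes (x axis), 1 point per rat, with lines joining the rats of a group in order of the x axis. For Ankrd2 the line of each group climbs from left to right, while the P3 line lies to the left of the Fed line, since the slow fibre mean was 8.77 to 9.42 in P3 and 10.36 to 10.51 in Fed.

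The genes whose course was most like that of each member were found by Pearson's r over the 9 arrays among the 14506 genes, as a description that includes the differences between groups. Closest to Ky were Plcd4, a phospholipase C (r = 0.999), Trpt1 (0.997) and Ache, the acetylcholinesterase of the neuromuscular junction (0.997). Their log2 fold changes in P3 versus Fed were -4.12 ± 0.11, -1.72 ± 0.061 and -3.08 ± 0.098. The P3 means of Plcd4 (5.52) and Ache (6.02) lie below or near the array medians, so the changes of these 2 genes may be understated. Closest to Xirp2 were Hspb3, a small heat shock protein of muscle (r = 0.995, log2 fold change -2.17 ± 0.24 in P3), Zfp706 (0.992) and Plaat1 (0.990). Fhl1 was followed most closely by Ddah2 (r = 0.971), by Acta2, the smooth muscle actin (0.965), and by the calponin Cnn3 (0.963). For Fhl3 they were Pex11a, a factor of peroxisome division (0.970), Txlnb (0.969) and Itm2b (0.943).

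For the genes that passed no test, the likeness is mainly one of rats within groups. Ankrd23 was matched by Slc2a6 (r = 0.969), Thoc7 (0.964) and Prkaa2, a catalytic subunit of AMP-activated protein kinase (0.952). Ankrd1 was matched by Kcne2 (0.957), Or5af1b (0.954) and Oas1b (0.920), Csrp3 by the glycolytic enzyme Pgam1 (0.936), Urm1 (0.905) and Ttr (0.904), and Ankrd2 by Phactr2 (0.912), Tp53i11 (0.903) and the endothelial receptor Kdr (0.898). None of these 12 genes passed in P2 or P3 versus Fed, where at an unadjusted p under 0.05 there were 2 differences, Kdr and Pgam1, both in P2.

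Other genes of the same machinery were counted from lists, with the 8 genes left out. Each list is set against the 15.8% of all probe sets that rose and the 13.4% that fell in P3 versus Fed. The called share was larger among probe sets with 1 symbol (5758 of 15310 in a fit of these alone). Of 9 measured genes for titin and its partners, 3 rose and 4 fell in P3 (median log2 fold change -0.21). Trim63, the ubiquitin ligase MuRF1 that binds titin at the M-band, had log2 intensities of 13.44, 13.33 and 13.49 in P3 rats, against 10.81, 11.01 and 10.70 in Fed rats (2.58 ± 0.13, adjusted p = 1.39e-06), and was already higher in P2 (1.49 ± 0.13). Nbr1, an autophagy receptor at the titin kinase, rose by 1.61 in P3. Capn3, the calpain held on titin N2A where the ankyrin repeat proteins also bind, was at 7.95, 8.21 and 8.09 in P3 rats, against 10.20, 9.85 and 9.89 in Fed rats (-1.90 ± 0.13, adjusted p = 9.54e-06). Cryab, a small heat shock protein that protects titin, fell by 1.14 ± 0.20, and Ttn itself had a log2 fold change of -0.11 ± 0.061 (adjusted p = 0.231).

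In the network of Z-disc and filamin proteins, 3 of 19 measured genes rose and 8 fell in P3 (median -0.19). The decreases were led by Ldb3, a PDZ-LIM protein that holds alpha-actinin (-2.13 ± 0.21, adjusted p = 7.57e-05), by Pdlim7 (-1.60 ± 0.16) and by Enah, a regulator of actin growth (-1.42 ± 0.20). Pdlim3, of the same PDZ-LIM family, rose by 1.01 ± 0.065 (adjusted p = 5.90e-06). Actn2, the alpha-actinin of the Z-disc, had a log2 fold change of -0.21 ± 0.092 (adjusted p = 0.129). Of 15 genes of the integrin costamere, which ties Z-discs to the membrane, 5 rose and 2 fell (median 0.075). Itgb1bp2, or melusin, a stretch sensor of heart muscle that binds integrin, had the lowest log2 fold change of the list, with 5.85, 5.50 and 5.42 in P3 rats, against 8.56, 8.55 and 8.58 in Fed rats (-2.97 ± 0.16, adjusted p = 2.60e-06), and it was lower in P2 as well (-1.53 ± 0.16). With P3 values near or below the array medians, its change in P3 may be understated. Sorbs3, or vinexin (1.71 ± 0.10), Lims2 (1.15 ± 0.14) and Tln1, a talin (0.74 ± 0.17), were higher in P3.

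Among 16 measured genes of the YAP-TEAD and SRF pathways, which carry mechanical signals to the nucleus, 4 fell and 12 did not pass in P3 (median -0.051). Without P2 1, P2 3 or P3 2, between 1 and 2 genes also rose. The 4 were the coactivator Yap1 (-1.20 ± 0.068, adjusted p = 3.01e-06), the transcription factor Srf (-1.18 ± 0.11, adjusted p = 4.15e-05), the TEAD cofactor Vgll4 (-1.17 ± 0.12) and the SRF target Actc1, the cardiac actin (-3.18 ± 0.48). Yap1 was at 7.66, 7.68 and 7.67 in P3 rats, against 8.79, 8.89 and 8.93 in Fed rats. Wwtr1, the paralogue of Yap1, and Tead1 had log2 fold changes of -0.033 ± 0.11 and 0.26 ± 0.094 and did not pass. Also without a call, Ccn1, Ccn2 and Amotl2 had higher means in P3 (8.98, 8.42 and 7.31) than in Fed (8.28, 8.13 and 7.05). The means of Egr1, Tead3 and Ajuba were lower in P3 than in Fed. In P2 versus Fed, Amotl2 was called higher and Yap1 and Actc1 lower. No gene of the list was called higher in P2 without P2 2, or without any 1 of the Fed or P3 rats.

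Of 9 other LIM genes of the Fhl, Csrp and Crip families, 2 rose and 4 fell in P3, or 2 fell without Fed 2 or Fed 3. Csrp2, a paralogue of Csrp3 typical of smooth muscle, was at 7.85, 7.41 and 7.85 in P3 rats, against 5.57, 5.85 and 5.53 in Fed rats (2.05 ± 0.15, adjusted p = 1.00e-05), and Fhl5 also rose (0.90 ± 0.20). The Fed values of Csrp2 lie near or below the array medians, so its increase may be understated. Lmcd1 (-1.76 ± 0.26) and Crip1 (-1.15 ± 0.14) fell. Of 23 other genes named Ankrd, which share the repeat but not a role in muscle, 3 rose and 5 fell, or 3 fell without Fed 2, Fed 3, P2 3, P3 2 or P3 3. Ankrd9 was lower (-2.21 ± 0.16) and Ankrd42 higher (1.89 ± 0.087), with Ankrd42 set against Fed values below the array medians, so that its increase may be understated. Ankrd46 (-1.35 ± 0.11) and Ankrd40 (-1.19 ± 0.12) were also lower.

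Genes that mark denervation or regeneration, states in which Ankrd1 is known to rise in rodents, were counted as well. Of 10 measured, 3 fell in P3 and 1, Runx1, rose (0.29), a call lost without Fed 1, Fed 2, P3 1 or P3 3. The decreases were in Myod1, the myogenic factor (-3.17 ± 0.32, with P3 values near the array medians), the embryonic myosin Myh3 (-1.61 ± 0.091) and the acetylcholine receptor subunit Chrna1 (-1.11 ± 0.17, likewise near the medians in P3). Of 10 fast fibre genes 4 fell (median -0.18), with Pvalb, a calcium buffer, at -1.87 ± 0.11, Tnni2 and Mybpc2 at -0.72 and -0.51 and Myl1 at -0.26. Of the called genes, the up to 4 per list with the largest change in P3 versus Fed, 36 in all, were refitted without each of the 9 arrays in turn. All of them but Runx1, 35 genes, kept their call each time.

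**Figure D4:**
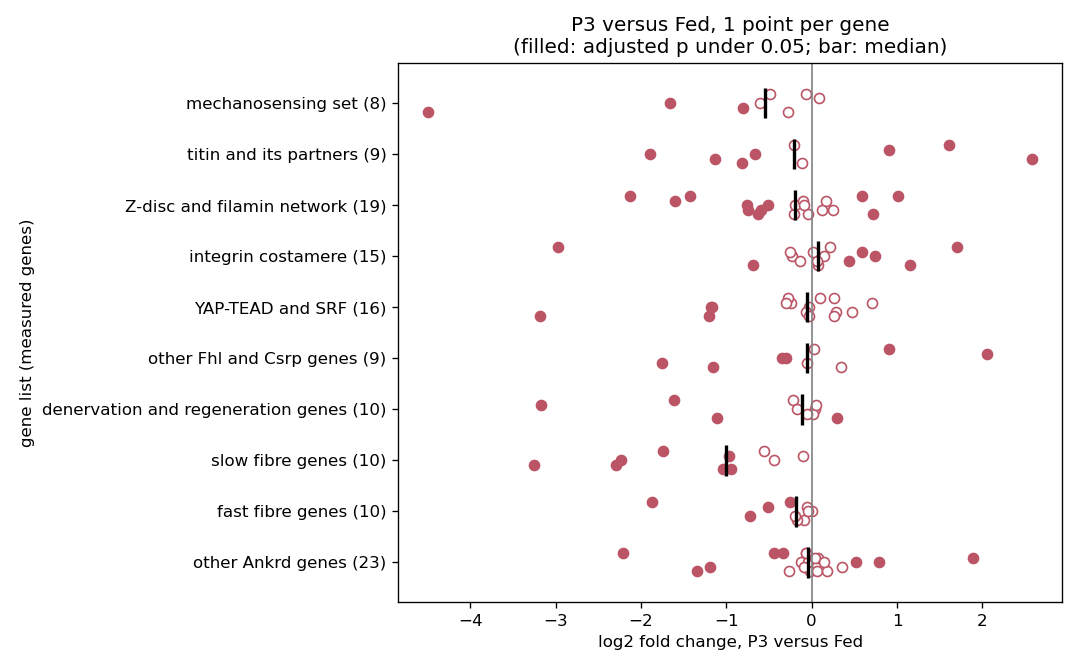
Log2 fold change in P3 versus Fed (x axis) of each measured gene in the mechanosensing set and in 9 other lists (y axis, number of genes in brackets), with filled points past an adjusted p of 0.05 and a bar at the median. Ky lies farthest to the left of all at -4.49, the slow fibre genes have the lowest median (-1.002), and the titin, Z-disc and costamere lists hold filled points on both sides of 0.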

How the data were processed

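RNA from tibialis anterior of 9 rats was hybridized to Affymetrix Rat Gene 1.0 ST arrays, 1 per rat. The authors made the deposited log2 intensities with RMA in Affymetrix Expression Console 1.1 (quantile normalization between arrays, median polish over probes), and the genome build is not given in the sources used here. Quantile normalization sets equal distributions on all arrays, so a change of total RNA would not show. Group means were fitted to the 29215 probe sets of the 9 arrays with limma 3.58.1 in R 4.3.3 (lmFit, eBayes with defaults), with Benjamini-Hochberg adjustment over all of them and calls at 0.05, two-sided. The script was tested on simulated data. Of the probe sets, 15310 have 1 symbol, 323 several and 13582 none, and a gene with several probe sets was read from the one with the highest mean. Named genes are the 8 measured members, up to 4 called genes with the largest change in P3 versus Fed per list (others, such as Ttn, Actn2, Wwtr1 and Tead1, were chosen after their values were seen) and the 3 genes most like each member. Members and lists were chosen with earlier results of these data known. Promoter windows are those of RefSeq (GRCr8), searched with Python 3.11.15. Alternatives were other normalizations, filters, moderation, weights, thresholds and tests, a replicate block, and each array left out in turn.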

Additional observations from a re-analysis of the deposited data

Results flagged for a closer look

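The changes in P3 and P2, both against Fed, differed by test for 3 of the 8 genes. The log2 fold change in P3 minus that in P2 was -3.05 for Ky, -1.12 for Xirp2 and -1.52 for Fhl3, which is the contrast of P3 with P2 in limma (adjusted p = 3.48e-06, 0.00136 and 0.00292). For Fhl3 the sign of the change against Fed differed, at -0.49 in P3 and 1.02 in P2, of which only the change in P2 passed. With 3 rats per group, no rat was tested for standing apart from its group.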

How the results depend on the processing

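The log2 fold changes of the 8 genes in 3 comparisons were recomputed 20 times each. Of these 480 values, 455 kept their direction and their side of the threshold, 14 were no longer past it, 8 came past it and 3 changed sign. The sign changed for Csrp3 in P3 versus Fed, where all values are near 0, to -0.0053 with quantile normalization once more and over a range of -0.041 to 0.25 with 1 array left out. The calls of Fhl3 in P2 versus Fed and of Fhl1 in P3 versus Fed were lost at an adjusted p under 0.01 and also with the ANOVA and Tukey test of the study's methods at 0.001, and the Tukey test lost those of Fhl3 and Xirp2 in P3 versus P2 as well. This left 1 of 8 genes called in P2 versus Fed under either setting, and 1 in P3 versus P2 with the Tukey test. Probe sets called in P2 versus Fed numbered 4284 with array weights, 1118 at 0.01 and 660 by Tukey, those in P3 versus Fed 2813 by Tukey, and those in P3 versus P2 2816 at 0.01 and 1419 by Tukey. With 1 array left out, 1573 to 3364 probe sets and 1 to 3 of the 8 genes were called in P2 versus Fed. Replicate numbers do not pair the rats (deviations of arrays with the same number correlated at -0.24 to 0.12, and 3 of 9 arrays were nearest to their own number), and with them as a block 1983, 7930 and 4035 probe sets and 2, 3 and 3 of the 8 genes were called for P2 against Fed, P3 against Fed and P3 against P2. The number of arrays, 3 per group, limits the precision, most for Ankrd2, whose intervals span 1.99 on the log2 scale.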
